A study of Mus musculus with 2 samples.

Results

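The genes described here are 8 that are used to recognise type 2 helper T (Th2) cells, namely Gata3, Il1rl1, Pparg, Rbpj, Bhlhe41, Il17rb, Ptgdr2 and Epas1, taken by symbol from the 32285 genes of both deposited matrices. At least 1 unique molecular identifier (UMI, the tag that marks 1 captured RNA molecule) was found in a cell for 7 of the 8, and Ptgdr2 had none. Both libraries held donor CD4 T cells from WT mice that had received house dust mite extract, a source of inhaled allergens, first on day 0 and then from day 7 to day 11. The donor cells were taken on day 14 from the lung, labelled with Cell Trace Violet, a dye that is halved at every division, and transferred to a C57BL/6 host (called the WT host below) or to a MARCH1-/- host. Both hosts then received the same extract as a challenge. On day 4 after this challenge donor cells low in dye, which had divided, were sorted from the lung and sequenced, as 1 library per host. MARCH1, a membrane ubiquitin ligase, removes MHC class II and CD86 from the surface of dendritic and B cells, so the genotype differed between the hosts and not between the sequenced T cells. How many mice went into each library, their ages, and the construct and tissue range of the MARCH1 deletion are not given in the sources used here.

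Th2 cells make the cytokines IL-4, IL-5 and IL-13, which drive eosinophil recruitment, IgE and mucus in the allergic lung. GATA3 is the transcription factor that opens the shared locus of these cytokines and activates Il5 and Il13. The receptors of the group let Th2 cells sense tissue signals: Il1rl1 encodes ST2, the receptor for IL-33, Il17rb a subunit of the receptor for IL-25, and Ptgdr2 the prostaglandin D2 receptor CRTH2. Pparg encodes a nuclear receptor for fatty acid ligands that is found in lung Th2 cells and also in alveolar macrophages. Rbpj encodes the DNA-binding partner of the Notch receptors, Epas1 the hypoxia-inducible factor HIF-2 alpha, and Bhlhe41 a basic helix-loop-helix repressor.

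The sequences before the transcription starts are shown for Gata3, Il1rl1 and Pparg because the levels of these genes were higher together in cells with type 2 cytokine RNA. Each is the 250 bases before a RefSeq start (build GRCm38.p6), read 5′ to 3′ on the strand of its gene. Capitals mark a GATA-type motif (AGATAA, or TTATCT on the other strand) or an RBPJ-type motif (TGGGAA, or TTCCCA on the other strand).
Gata3, chr2:9878601-9878850, minus strand: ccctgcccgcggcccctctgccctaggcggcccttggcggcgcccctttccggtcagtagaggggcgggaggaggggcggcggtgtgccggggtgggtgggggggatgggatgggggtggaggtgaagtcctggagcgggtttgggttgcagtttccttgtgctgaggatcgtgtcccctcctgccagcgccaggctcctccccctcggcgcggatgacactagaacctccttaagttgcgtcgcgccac
Il1rl1, chr1:40429320-40429569, plus strand: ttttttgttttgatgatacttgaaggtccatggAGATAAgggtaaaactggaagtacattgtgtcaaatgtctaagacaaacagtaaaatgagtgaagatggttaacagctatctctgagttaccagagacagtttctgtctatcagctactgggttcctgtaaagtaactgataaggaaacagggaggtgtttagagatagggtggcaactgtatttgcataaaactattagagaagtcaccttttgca
Pparg, chr6:115421816-115422065, plus strand: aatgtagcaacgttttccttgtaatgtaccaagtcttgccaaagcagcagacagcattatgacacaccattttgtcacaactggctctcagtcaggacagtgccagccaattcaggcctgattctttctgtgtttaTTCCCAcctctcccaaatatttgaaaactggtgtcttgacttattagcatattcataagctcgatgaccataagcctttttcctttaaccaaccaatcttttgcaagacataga
The Gata3 window held neither motif, lies inside the annotated span of the gene and overlaps an exon of the non-coding gene Gm13256. The Il1rl1 window, before the more upstream of its listed starts, held AGATAA 217 bases before the start, and the window of its other start, not printed, held a GATA-type match at 103 bases and an RBPJ-type match at 134 bases. The Pparg window, before the most downstream of its listed starts, held TTCCCA 114 bases before the start, and the windows of the other Pparg starts held neither motif. Over 32851 windows of the same length before RefSeq starts, 9.99% held the GATA-type motif and 21.6% the RBPJ-type motif, so a match is a description of the letters and no evidence of binding.

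A barcode counted as a cell when it had at least 500 UMIs, at least 250 genes and at most 10% of its UMIs from mitochondrially encoded genes. This gave 352 cells from the WT host, with a median of 6086.5 UMIs, and 156 from the MARCH1-/- host, with a median of 8017, and no cell barcode was shared between the libraries. All 12 CD4 T cell markers were detected in both libraries, and the macrophage and monocyte list of 10 genes had 5 and 11 UMIs. Of the CD8 T cell genes Cd8a had 0 UMIs in both, and Cd8b1 had 30 UMIs in 23 cells and 16 UMIs in 13 cells. A cell is called cytokine-positive below when it held at least 1 UMI of Il4, Il5 or Il13. There were 137 such cells (38.9%, 95% Clopper-Pearson interval 33.8 to 44.2) from the WT host and 57 (36.5%, 29.0 to 44.6) from the MARCH1-/- host. Free RNA was estimated to give an Il13 UMI, the most frequent of the 3, to 0.470% and 0.188% of cells. For Il4 the estimates were 0.307% and 0.0404%, and for Il5 0.0922% and 0.0269%. They take a cell to hold 13 and 11 free UMIs, the medians of barcodes with 10 to 99 UMIs. Cytokine-positive cells were deeper than the other cells, with a median of 7987 against 4828 UMIs in the WT-host library and 10009 against 6430 in the MARCH1-/- host library. Levels are UMIs summed over cells per 1000000 UMIs (CPM), with an exact Poisson 95% interval. With 1 library per host no test was possible, and all intervals cover counting error only, not differences between mice, libraries or cells.

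Gata3, Il1rl1 and Pparg marked the cytokine-positive cells in both libraries. Gata3 was 2.20-fold higher in cytokine-positive than in the other cells from the WT host and 2.06-fold higher from the MARCH1-/- host. The same ratio was 4.63 and 3.57 for Il1rl1 and 4.08 and 4.22 for Pparg. Rbpj was higher by smaller factors, 1.51 and 1.67, and Epas1 by 1.69 and 7.70, the last from 36 UMIs. Neither direction held under every alternative: Rbpj was at log2 -0.74 in the MARCH1-/- host library thinned to 1000 UMIs, and Epas1 at -0.19 in the WT-host library without cycling cells. The Rbpj value rests on 1 draw with classes assigned after thinning, and that draw held 54 Rbpj UMIs for this host against 74.3 expected over all draws. Among members with at least 50 UMIs in the compared cells, 3 of 5 were at least 2-fold higher in the WT-host library, where 2.19% of 5198 genes were higher, 2.33% lower and 4.52% either. In the MARCH1-/- host library it was 3 of 4, where 1.64% of 4327 genes were higher, 2.57% lower and 4.21% either, and no member was lower by that much in either library. Il1rl1 and Pparg were past 2-fold under every alternative that gave a value, but Gata3 was past it under 12 of 13 for the WT host and 10 of 13 for the MARCH1-/- host.

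Gata3 (ENSMUSG00000015619, chr2:9857078-9890034, minus strand) gave 895 UMIs in cells from the WT host and 628 from the MARCH1-/- host. In the WT-host library its level was 486 CPM (448 to 526) in cytokine-positive and 221 CPM (196 to 248) in cytokine-negative cells. In the MARCH1-/- host library the corresponding levels were 558 CPM (504 to 616) and 270 CPM (237 to 307). The intervals of positive and negative cells did not overlap in either library, and the log2 ratios were 1.14 (0.93 to 1.34) and 1.04 (0.81 to 1.28). A Gata3 UMI was seen in 86.9% of cytokine-positive and 49.8% of cytokine-negative cells from the WT host. These shares were 96.5% and 61.6% from the MARCH1-/- host. At an equal depth of 1000 UMIs per cell the expected shares were 37.5% against 17.2%, and 44.0% against 20.3%. The order was the same, but the classes were still those assigned at full depth. With the classes also assigned after thinning to 1000 UMIs, the Gata3 log2 ratio for the MARCH1-/- host was 0.60, below 2-fold. Free RNA was estimated to give a Gata3 UMI to 0.156% and 0.259% of cells. Of the cytokine UMIs themselves, 96.4% and 99.4% lay in cells that also had a Gata3 UMI. This was not particular to Gata3, as 99.3% and 99.1% lay in cells with an Rbpj UMI. Among cells without a Gata3 UMI, 14.3% (8.69 to 21.6) from the WT host and 5.0% (0.611 to 16.9) from the MARCH1-/- host were cytokine-positive, against 52.7% (45.9 to 59.3) and 47.4% (38.1 to 56.9) of cells with one. The cells without a Gata3 UMI were shallower, with medians of 4250 and 4694.5 UMIs against 7758 and 8939.

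**Figure D1:**
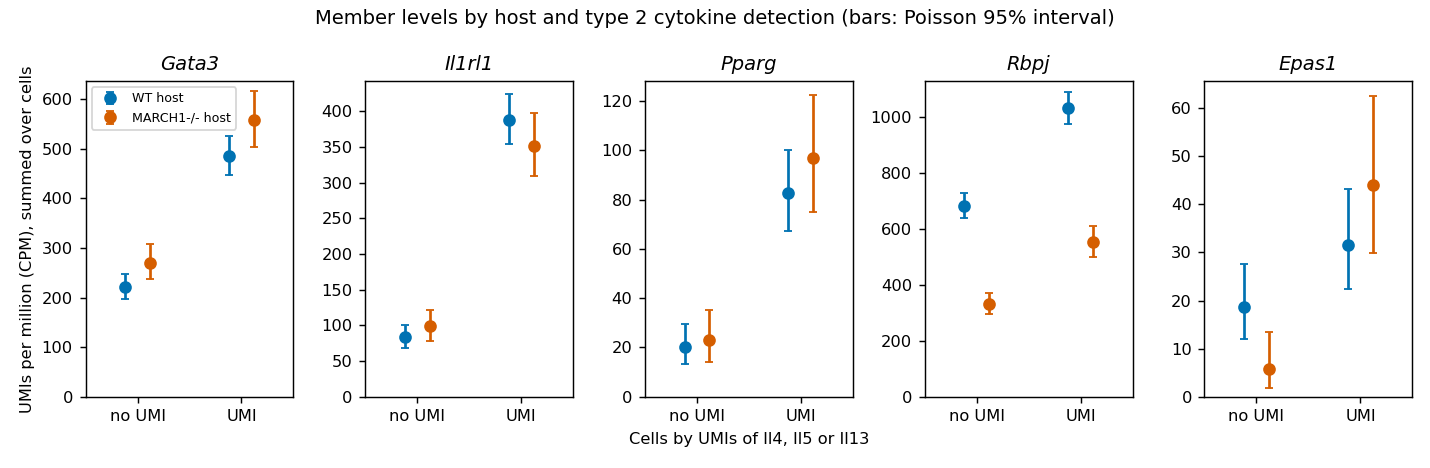
Levels of 5 members in CPM (vertical axis, linear from 0), summed over cells without and with a UMI of Il4, Il5 or Il13, for the WT host (blue) and the MARCH1-/- host (orange), 1 library each; bars are exact Poisson 95% intervals. Gata3, Il1rl1 and Pparg are higher in cytokine-positive cells of both libraries with little distance between hosts, while both Rbpj points of the MARCH1-/- host, at 331 and 553 CPM, lie below both of the WT host, at 681 and 1030 CPM.

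Il1rl1 (ENSMUSG00000026069, chr1:40429570-40465415, plus strand), which encodes ST2, separated the classes more widely than Gata3. Its level from the WT host was 388 CPM (355 to 425) in cytokine-positive cells and 83.9 CPM (69.1 to 101) in the others. The MARCH1-/- host gave 351 CPM (309 to 398) and 98.5 CPM (78.8 to 122). The log2 ratios were 2.21 (1.91 to 2.52) and 1.83 (1.47 to 2.21), placing Il1rl1 at percentiles 99.6 and 99.6 of all genes compared within each library. Detection was far from complete even in cytokine-positive cells: 62.8% (86 of 137) and 73.7% (42 of 57) had an Il1rl1 UMI, against 16.3% and 27.3% of the other cells. Expected shares at 1000 UMIs were 27.7% against 6.08%, and 29.7% against 10.8%. The 5 cells with the most Il1rl1 held 19.6% of its UMIs in cytokine-positive cells from the WT host and 36.4% from the MARCH1-/- host. The 3′ counts do not tell the membrane form of ST2 from its secreted decoy form.

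Pparg (ENSMUSG00000000440, chr6:115360951-115490399, plus strand) gave 129 and 88 UMIs in all. From the WT host its level was 82.6 CPM (67.3 to 100.2) in cytokine-positive and 20.2 CPM (13.3 to 29.4) in cytokine-negative cells. The MARCH1-/- host gave 96.8 CPM (75.1 to 123) and 22.9 CPM (14.0 to 35.4). The log2 ratios of 2.03 (1.41 to 2.70) and 2.08 (1.34 to 2.88) were the closest between the libraries of the 3 genes. Pparg was detected in 43.1% of cytokine-positive cells from the WT host and 56.1% from the MARCH1-/- host, and in 8.37% and 11.1% of the others. Because alveolar macrophages express Pparg, their markers were counted in the Pparg-positive cells. All 8 markers, Marco and Chil3 among them, were at 0 in the 77 Pparg-positive cells from the WT host. In the 43 from the MARCH1-/- host 7 were at 0 and Siglecf had 1 UMI, while all 12 CD4 T cell markers were detected in both.

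Rbpj (ENSMUSG00000039191, chr5:53466152-53657362, plus strand) was found in most cytokine-positive and most cytokine-negative cells, at a higher level in the former. Its level from the WT host was 1030 CPM (974 to 1088) in cytokine-positive and 681 CPM (637 to 726) in cytokine-negative cells. For the MARCH1-/- host the levels were 553 CPM (499.8 to 611) and 331 CPM (294 to 372). The log2 ratios, 0.60 (0.47 to 0.72) and 0.74 (0.52 to 0.97), were below 2-fold in both libraries. They lay at percentiles 92.1 and 96.6 of all genes compared within each library. An Rbpj UMI was seen in 94.9% and 80.9% of the classes from the WT host and in 94.7% and 69.7% of those from the MARCH1-/- host. Of the 50-base stretches at the 3′ end of Rbpj, 23.7% also occur in the processed copies Rbpj-ps1 and Rbpj-ps3, which are not among the counted genes, so its counts are uncertain to the extent that such reads were dropped or misplaced.

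The rarer members pointed the same way where they had counts, with little precision. Epas1 (ENSMUSG00000024140, chr17:86753700-86833410, plus strand) gave 39 UMIs in cytokine-positive and 25 in cytokine-negative cells from the WT host, a log2 ratio of 0.75 whose interval (-0.01 to 1.54) included no difference. From the MARCH1-/- host it gave 31 and 5 UMIs, a log2 ratio of 2.94 (1.57 to 4.66). Endothelial cells also express Epas1, and in the 42 and 22 Epas1-positive cells their list of 8 genes had 13 and 20 UMIs. From the WT host these were 9 of Pecam1, which some T cells also carry, 2 of Egfl7, 1 of Cldn5 and 1 of Ramp2, and the Egfl7 and Cldn5 UMIs were all that this library had. All 20 from the MARCH1-/- host were of Pecam1, and Cdh5, Kdr, Tek and Vwf were at 0 in both. The part of such cells in the Epas1 values was not tested. Il17rb (ENSMUSG00000015966, chr14:29996135-30008896, minus strand) had 13 UMIs in cytokine-positive and 3 in cytokine-negative cells from the WT host, a log2 ratio of 2.23 (0.36 to 4.68), and 9 of the 16 UMIs came from 1 cell. It had 6 and 3 UMIs from the MARCH1-/- host, a log2 ratio of 1.31 (-0.91 to 3.94). Bhlhe41 (ENSMUSG00000030256, chr6:145858243-145865558, minus strand) had 3 UMIs in 2 cells, both cytokine-positive and from the WT host. Ptgdr2 (ENSMUSG00000034117, chr19:10937160-10942511, plus strand) was at 0 in both libraries, which allows a UMI in up to 0.852% of cells from the WT host and 1.92% from the MARCH1-/- host. Bhlhe41 was likewise at 0 from the MARCH1-/- host.

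**Figure D2:**
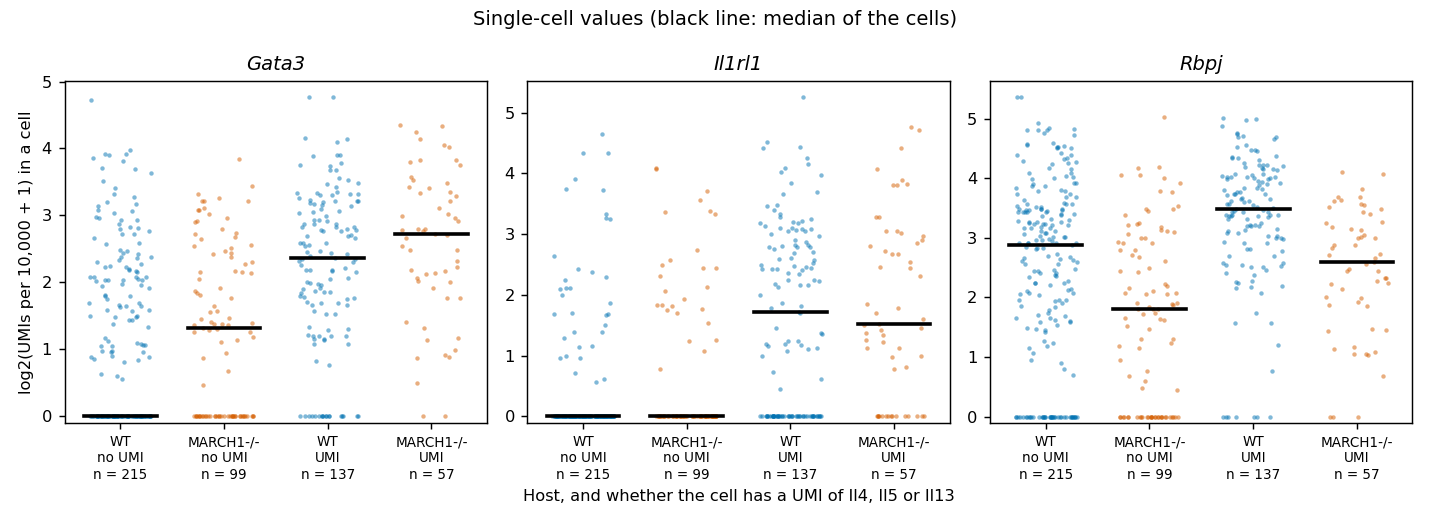
Each point is 1 cell, placed by log2(UMIs per 10000 + 1) of Gata3, Il1rl1 or Rbpj (vertical axis), in cells without and with a UMI of Il4, Il5 or Il13 from each host; points are spread sideways for visibility and the black line is the median of the cells. Cells at 0 make up a large part of the cytokine-negative groups for Gata3 (107 of 215 cells from the WT host had a UMI) and most of them for Il1rl1 (35 of 215), and single-cell values overlap between all groups.

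The members also differed with the amount of cytokine RNA in a cell, though not evenly. Cells were split by their summed Il4, Il5 and Il13 UMIs into none, 1, 2 to 9 and 10 or more, which gave 215, 28, 57 and 52 cells from the WT host and 99, 6, 34 and 17 from the MARCH1-/- host. Il1rl1 stood at 83.9, 135, 409 and 463 CPM over these bins from the WT host and at 98.5, 235, 259.7 and 618 CPM from the MARCH1-/- host. Its point value was thus highest in the cells richest in cytokine RNA in both. The top bin from the MARCH1-/- host rests on 17 cells, among them cells with 26 and 21 Il1rl1 UMIs. Gata3 from the WT host was at 221, 202, 591 and 506 CPM, with the cells holding a single cytokine UMI at the level of the negative cells. From the MARCH1-/- host Gata3 was at 270, 518, 479.5 and 771 CPM, where the single-UMI bin rests on 6 cells and 22 Gata3 UMIs. Pparg in the top bin was at 106 CPM (81.5 to 136) and 126 CPM (79.8 to 189), close to each other between hosts. Rbpj in the top bin was at 1058 CPM (976 to 1145) from the WT host and 799 CPM (674 to 939) from the MARCH1-/- host. Median depth differed between these bins too, from 4828 UMIs in the empty bin to 9262.5 in the top bin of the WT-host library, and its part in the pattern was not tested.

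**Figure D3:**
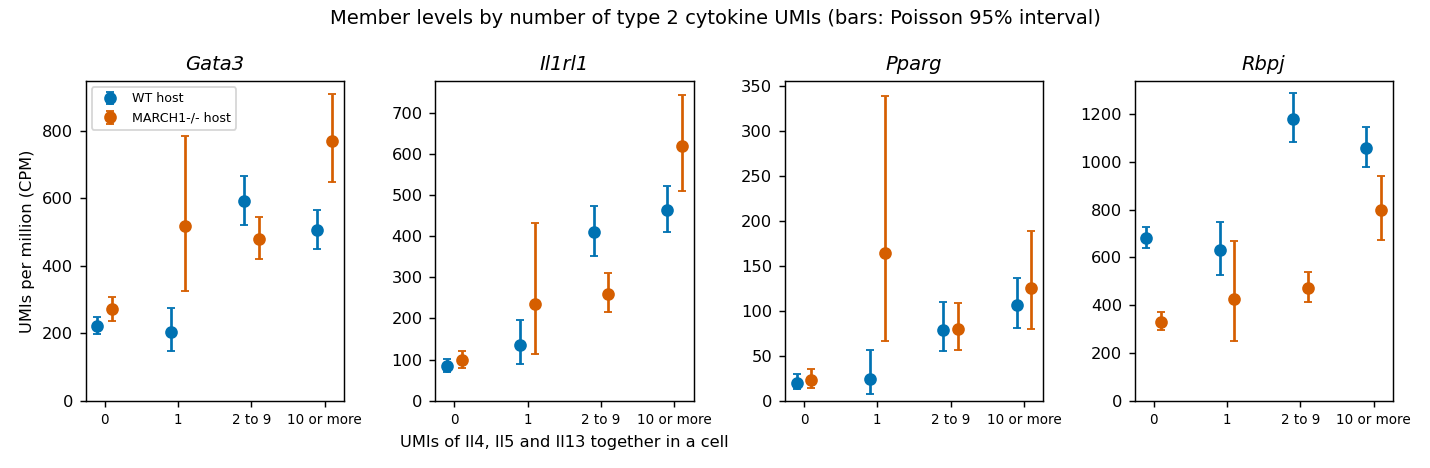
Levels of Gata3, Il1rl1, Pparg and Rbpj in CPM (vertical axis, linear from 0) over cells grouped by their number of Il4, Il5 and Il13 UMIs (horizontal axis), for the WT host (blue) and the MARCH1-/- host (orange); bars are exact Poisson 95% intervals. Il1rl1 is lowest in cells with none and highest in cells with 10 or more in both libraries, and the wide bars at 1 UMI from the MARCH1-/- host come from 6 cells.

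Levels of the members were also taken in the cells positive for each cytokine. In cells with an Il4, Il5 or Il13 UMI from the WT host, 73, 47 and 118 cells that overlap, Gata3 was at 540, 463 and 502 CPM. From the MARCH1-/- host, with 37, 14 and 49 cells, Gata3 was at 609, 577 and 548 CPM. Pparg was highest in the Il5-positive cells of both libraries, at 103 CPM (76.2 to 137) and 122 CPM (78.5 to 182), but these intervals overlap those of the Il4-positive cells, at 94.7 CPM and 104 CPM. Il1rl1 was at 489 CPM (438 to 545), 355 CPM (303 to 414) and 412 CPM (375 to 451) from the WT host, lowest in the Il5-positive cells. In the MARCH1-/- host library the Il5-positive cells had the highest Il1rl1, with 373 CPM (319 to 433), 515 CPM (419.8 to 626) and 349 CPM (305 to 398). Rbpj was even across the cytokines from the WT host, at 1062, 1069 and 1035 CPM, and at 479 CPM (418 to 546), 760.4 CPM (643 to 893) and 589 CPM (531 to 652) from the MARCH1-/- host. Epas1 ranged from 30.9 to 40.9 CPM and from 39.0 to 66.3 CPM, with overlapping intervals.

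Over all cells, Rbpj had the largest host difference of the members with at least 50 UMIs. Over all cells Rbpj was at 849 CPM (813 to 885) from the WT host and 430 CPM (399 to 464) from the MARCH1-/- host, a 1.97-fold lower level (1.81 to 2.15) with a log2 ratio of -0.98 (-1.11 to -0.85). Gata3, Il1rl1, Pparg and Epas1 lay within 1.15-fold between hosts over all cells. Over all cells 0 of 5 members differed by at least 2-fold, where 9.78% of 6762 genes did, 6.97% higher and 2.81% lower from the MARCH1-/- host. Rbpj was just short of 2-fold, passed it under 6 of 13 alternatives and was at percentile 2.94 of these genes, whose median log2 ratio was 0.25.

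Rbpj was lower from the MARCH1-/- host in every class of cells examined. In cytokine-positive cells its log2 ratio was -0.90 (-1.06 to -0.73), and 0 of 5 members passed 2-fold, where 10.9% of 4599 genes did, 6.89% higher and 4.0% lower. In cytokine-negative cells it was -1.04 (-1.24 to -0.85), and Rbpj was the 1 of 3 members past 2-fold, where 11.4% of 5008 genes were, 8.23% higher and 3.15% lower. At an equal depth of 1000 UMIs the share of cells with an Rbpj UMI was 52.9% from the WT host and 33.5% from the MARCH1-/- host, while the unthinned shares were 86.4% (82.3 to 89.8) and 78.8% (71.6 to 85.0). In cells from the WT host with Mki67 or Top2a, genes of dividing cells, Rbpj was at 981 CPM when cytokine-positive and 646 CPM when cytokine-negative, against 535 and 327 CPM from the MARCH1-/- host. In cells with neither gene the levels were 1141 and 727 CPM against 617 and 343 CPM, so the order of the hosts was the same in cycling and other cells. From the content of barcodes under 100 UMIs, free RNA was estimated to give an Rbpj UMI to 0.697% of cells from the WT host and 0.413% from the MARCH1-/- host. In those barcodes Rbpj was at 538 CPM (496 to 584) from the WT host and 377 CPM (313 to 449) from the MARCH1-/- host, the same order as in cells. The 5 cells richest in Rbpj held 6.78% of its UMIs from the WT host and 19.5% from the MARCH1-/- host.

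Gata3 over all cells was at 348 CPM (326 to 372) from the WT host and 399 CPM (368 to 431) from the MARCH1-/- host. Its log2 ratio was 0.20 (0.05 to 0.34). This lies near the median of all genes, 0.25, and relative to that median the ratio was -0.06. The Gata3 ratio was 0.20 (0.01 to 0.39) in cytokine-positive and 0.29 (0.04 to 0.54) in cytokine-negative cells. Il1rl1 was at 230.3 CPM (212 to 249.6) from the WT host against 211 CPM (189 to 235), which is -0.12 (-0.32 to 0.07) as log2. Pparg was at 50.2 CPM (41.9 to 59.6) against 55.9 CPM (44.8 to 68.8), which is 0.15 (-0.25 to 0.56). Without cycling cells the Pparg ratio was 1.14 over all cells and 1.46 in cytokine-positive cells, from 35 against 38 and 30 against 26 UMIs. Over all cells the counting intervals of Gata3 and Il1rl1 reached at most 1.27-fold, and in cytokine-negative cells they reached 1.46-fold and 1.57-fold. Without cycling cells the Gata3 and Il1rl1 log2 ratios over all cells were 0.42 and 0.50. The intervals do not show that the hosts are alike. Epas1 was at 24.9 CPM and 22.8 CPM, and its split into classes went in opposite directions, 0.48 (-0.25 to 1.20) in cytokine-positive and -1.71 (-3.45 to -0.30) in cytokine-negative cells, the last from 5 UMIs against 25. Without cycling cells the Epas1 ratio was 1.10 over all cells and 2.35 in cytokine-positive cells, from 17 against 19 and 15 against 7 UMIs.

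**Figure D4:**
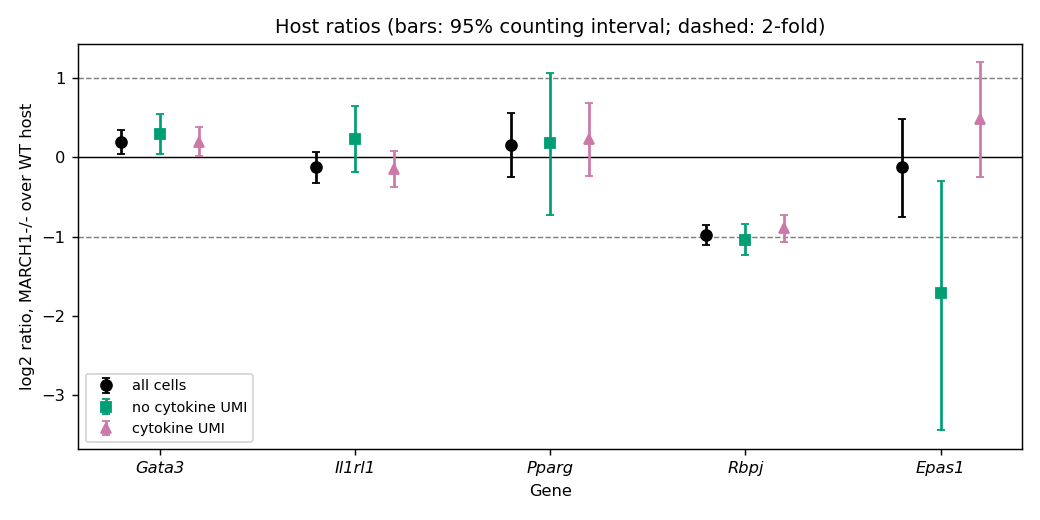
Log2 ratio, MARCH1-/- over WT host (vertical axis), for the 5 members with at least 50 UMIs over all cells, shown over all cells (black circles), cells without (green squares) and with (pink triangles) a UMI of Il4, Il5 or Il13; bars are 95% counting intervals and dashed lines mark 2-fold. In cytokine-negative cells Pparg (20 against 27 UMIs) and Epas1 were under that minimum. Rbpj lies near -1 in all 3 sets of cells, Gata3, Il1rl1 and Pparg lie near 0 with cycling cells included (Pparg is at 1.14 over all cells without them, not drawn), and Epas1 in cytokine-negative cells rests on 30 UMIs.

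The cytokine-negative cells were a mixture, and the members differed across it. Cells were assigned in order to a Foxp3 class (40 and 24 cells from the WT and MARCH1-/- hosts), an Ifng or Tbx21 class (37 and 8), an Mki67 or Top2a class (51 and 36) and the remaining cells (87 and 31), each by a single UMI. Foxp3 is the transcription factor of regulatory T cells, in which Gata3 and ST2 also occur. In the Foxp3 class Gata3 was at 160 CPM (116 to 214) from the WT host and 350 CPM (277 to 437) from the MARCH1-/- host, intervals that did not overlap, and 5 cells held 47.7% and 59.5% of these UMIs. Il1rl1 in the same class was at 142 CPM (101 to 194) and 182 CPM (130 to 247), with a UMI in 27.5% and 58.3% of its cells at median depths of 5455.5 and 6400.5 UMIs. Rbpj went the other way there, with 504 CPM (424 to 596) against 208 CPM (153 to 277).

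In the Ifng or Tbx21 class, of Th1-type cells, Il1rl1 was all but missing, with a UMI in 2 of 37 cells from the WT host (5.41%, 0.661 to 18.2, median depth 4618 UMIs). From the MARCH1-/- host it was seen in 0 of 8 cells (median depth 6246 UMIs), which leaves an upper 95% limit of 36.9%. The Foxp3 class, also without cytokine UMIs, had larger shares. The 62.8% and 73.7% in cytokine-positive cells came at median depths of 7987 and 10009 UMIs, so they are not set against the Th1-type class at equal depth. Gata3 was lower in this class than in the other classes but its intervals overlapped some of theirs, at 135 CPM (91.0 to 193) from the WT host and 185 CPM (98.7 to 317) from the MARCH1-/- host. Rbpj was not low in these cells from the WT host, at 939 CPM (816 to 1076), and stood at 228 CPM (130.4 to 370.4) from the MARCH1-/- host. The cycling class without cytokine, at 293 CPM (244 to 348) and 267 CPM (219 to 322), had Gata3 levels between those of the Th1-type and the cytokine-positive cells.

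**Figure D5:**
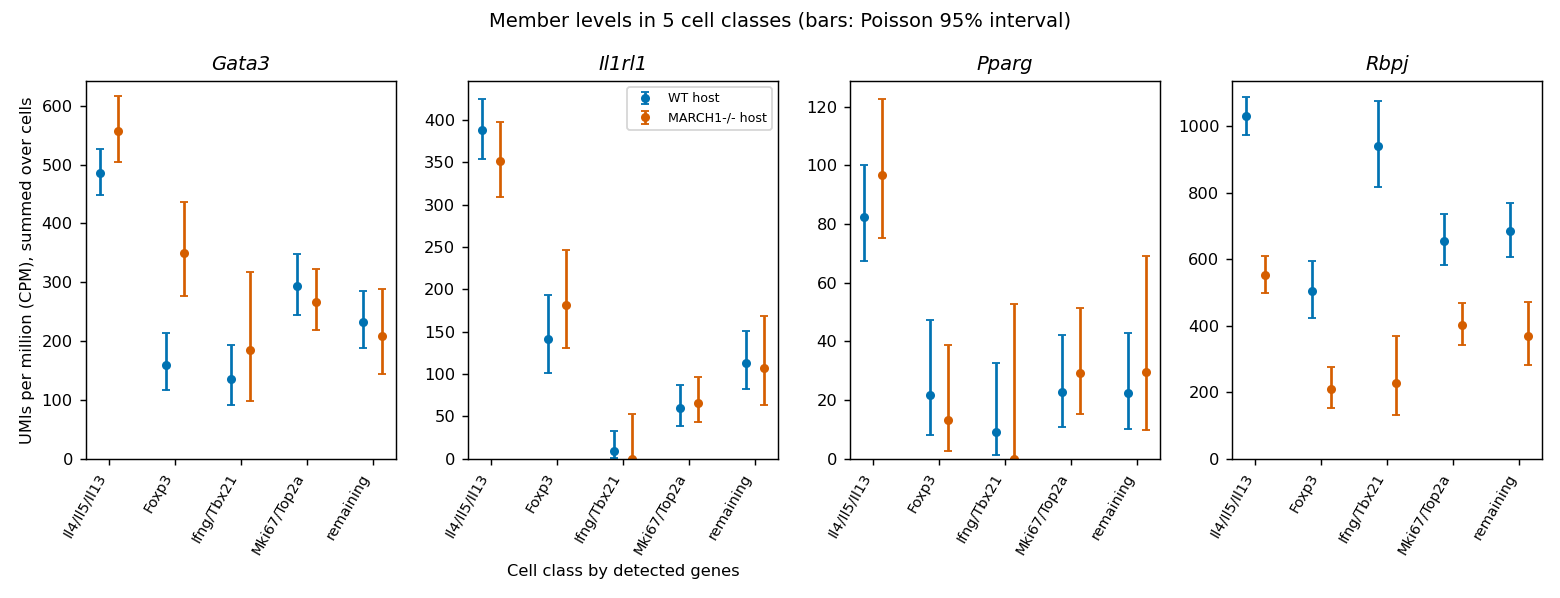
Levels of Gata3, Il1rl1, Pparg and Rbpj in CPM (vertical axis, linear from 0) in 5 classes of cells named by the genes of which they hold a UMI (horizontal axis), for the WT host (blue) and the MARCH1-/- host (orange); bars are exact Poisson 95% intervals. Gata3, Il1rl1 and Pparg peak in the Il4/Il5/Il13 class of both libraries, Gata3 in the Foxp3 class is at 160 CPM against 350 CPM, and every Rbpj point of the MARCH1-/- host lies below its WT-host partner.

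At their full depth, single cells often held several members together. The median number of members with a UMI was 3 in cytokine-positive and 1 in cytokine-negative cells from the WT host, and 4 and 2 from the MARCH1-/- host. Gata3, Il1rl1 and Pparg were all detected in 45 of 137 cytokine-positive cells (32.8%, 25.1 to 41.4) but in 6 of 215 others (2.79%, 1.03 to 5.97) from the WT host. The numbers were 26 of 57 (45.6%, 32.4 to 59.3) and 2 of 99 (2.02%, 0.246 to 7.11) from the MARCH1-/- host. Much of this co-detection was not visible at equal depth. With each cell thinned to 1000 UMIs in 1 draw, the median number of members was 1 and 1 from the WT host and 1 and 0 from the MARCH1-/- host. All 3 genes were then seen in 2 of 137 cytokine-positive (1.46%, 0.177 to 5.17) and 0 of 204 other cells from the WT host, and in 4 of 57 (7.02%, 1.95 to 17.0) and 0 of 99 from the MARCH1-/- host. The upper 95% limits of the shares at 0 were 1.79% and 3.66%. In the cells with an Il1rl1 UMI, Gata3 stood at 498 CPM (458 to 540.0) from the WT host, against 222 CPM in the cells without, and at 622 CPM against 229.6 CPM from the MARCH1-/- host. Among cells with an Il1rl1 UMI 71.1% and 60.9% were cytokine-positive, against 22.1% and 17.2% of cells without, and for Pparg the shares were 76.6% and 74.4% against 28.4% and 22.1%. Of the cells with an Rbpj UMI 42.8% and 43.9% were cytokine-positive, against 14.6% and 9.09% of the 48 and 33 cells without. The positive cells of each member were also deeper, with medians of 8366 against 4801 UMIs for Il1rl1 in the WT-host library, and the shares in this comparison were not taken at equal depth.

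The genes whose levels followed each member across single cells were ranked over 4192 genes by the lower of the correlations in the 2 libraries (352 and 156 cells, log2 of UMIs per 10000 + 1). Cells of a library share their preparation and differ in depth, so these values are descriptions. For Gata3 the first 5 were Il1rl1 (r = 0.43), Il13 (0.40), Ltb4r1 (0.33), Dusp16 (0.33) and Plac8 (0.31), against a median gene of -0.01. For Il1rl1 they were Il13 (0.47), Gata3 (0.43), Plac8 (0.42), Arl5a (0.35) and Fgl2 (0.35), and for Pparg Il13 (0.40), Ltb4r1 (0.31), Gsn (0.26), Lgals1 (0.24) and Il1rl1 (0.24). Ltb4r1, the receptor for leukotriene B4, stood on 2 of these lists, but thinned to 1000 UMIs it had 0.02 with Gata3 and 0.14 with Pparg. Rbpj had a different list with neither Il4 nor Il13: Igfbp7 (0.43), Pdcd1 (0.39), which encodes the inhibitory receptor PD-1, Ptms (0.35), Nfkb1 (0.33) and Tnfsf8 (0.33). With the summed UMIs of Il4, Il5 and Il13, scaled in the same way, Rbpj still had 0.30 from the WT host and 0.35 from the MARCH1-/- host. The correlations were weaker once cells were thinned to 1000 UMIs, where Gata3 with Il1rl1 had 0.16, Gata3 with Il13 -0.01 and Il1rl1 with Plac8 0.27. The values for the 5 genes on the Rbpj list then lay between -0.06 and 0.13, and Rbpj with the summed cytokines had 0.15 and -0.08.

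Other genes of the Th2 program did not all follow Gata3. Of the 15 listed effector genes, 9 had at least 50 UMIs in the WT-host library and 7 of them were at least 2-fold higher in cytokine-positive cells, but Il4, Il5 and Il13 define those cells and carry no information. Of the others, Areg (amphiregulin, a tissue-repair factor) had a log2 ratio of 1.70 (1.48 to 1.91), Calca 3.25, Plac8 1.90 and the chemokine Ccl1 3.35. From the MARCH1-/- host Calca (5.38) and Plac8 (4.25) were past 2-fold and Areg was not, at 0.73 (0.50 to 0.97). Of the listed transcription factors other than the members, 18 and 17 were measured, none was at least 2-fold higher, and Tcf7, a factor of naive and stem-like T cells, was lower by log2 -2.60 in both libraries. Rora was also lower, by -1.38 and -1.13, and Stat5b by -1.13 from the MARCH1-/- host alone. The list medians of these factors, -0.08 and -0.07, lay near those of all genes, 0.02 and -0.03. Maf, a factor that drives Il4, was at 1053 and 860 CPM in cytokine-positive and -negative cells from the WT host, a log2 ratio of 0.29 (0.18 to 0.41), and 0.26 (0.09 to 0.43) from the MARCH1-/- host.

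The genes that work with single members differed little between the classes. Of the 17 genes listed with Rbpj, receptors, cofactors and targets of the Notch pathway, 7 and 5 were measured and none passed 2-fold in either library. Notch1, the most counted of these receptors, was at 51.8 CPM in cytokine-positive and 44.9 CPM in cytokine-negative cells from the WT host. Between the hosts 9.78% of all genes were past 2-fold, so 1 gene of a list of about 10 is no result about that list. Of the list with Rbpj, 1 of 9 was past 2-fold over all cells, Ncstn, a subunit of the gamma-secretase that cleaves Notch, at a log2 ratio of -1.09 (-2.02 to -0.24). Notch1 had a host ratio of -0.27 (-0.73 to 0.18) and Adam10, the protease that cuts Notch first, 0.02 (-0.36 to 0.38), beside the -0.98 of Rbpj. Of the genes listed with Pparg, 1 of 6 measured was at least 2-fold higher in cytokine-positive cells from the WT host, where 2.19% of all genes were. It was Plin2, which coats lipid droplets, at 1.01 (0.46 to 1.58). From the MARCH1-/- host 0 of 4 were higher, and Plin2 was at 64.0 CPM in cytokine-positive and 65.3 CPM in cytokine-negative cells. Of the genes downstream of ST2, 0 of 10 and 0 of 6 passed 2-fold between the classes, and Traf6 was the 1 of 10 past it between the hosts, at -1.31 (-1.96 to -0.70). Of the genes listed with Epas1, 1 of 4 was past 2-fold between the hosts in cytokine-positive cells, Egln1, and 0 of 5 in cytokine-negative cells. Over all cells 8 were measured. Of these, Egln1 and Egln3, hydroxylases that mark hypoxia-inducible factors for decay, were higher from the MARCH1-/- host, at 1.25 (0.83 to 1.69) and 1.01 (0.21 to 1.81). Arnt2 was lower, at -1.41 (-2.45 to -0.48). Hif1a, the relative of Epas1, was at 475 CPM from the WT host and 361 CPM from the MARCH1-/- host, a log2 ratio of -0.40 (-0.54 to -0.25).

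Cytokine RNA and Gata3 differed in how they compared between the hosts. In cytokine-positive cells Il13 was at 1636 CPM from the WT host and 741 CPM from the MARCH1-/- host, 2021 against 521 UMIs and a log2 ratio of -1.14, while Gata3, Il1rl1 and Pparg in the same cells had ratios of 0.20, -0.14 and 0.23. The share of cells that are cytokine-positive, 38.9% and 36.5%, had overlapping intervals. Il4, Il5 and Il13 define these cells. Of the other 6 measured effector genes 3 were at least 2-fold lower from the MARCH1-/- host, Calca, Furin and Ccl1, where 4.0% of genes were, and none was higher. This was not particular to cytokine-positive cells. In cytokine-negative cells 3 of 5 measured effector genes were lower by that much, Plac8, Furin and Ccl1, where 3.15% of genes were, and none was higher. The log2 ratios there were -1.71 (-1.94 to -1.49) for Furin and -3.42 (-5.08 to -2.14) for Ccl1, the last from 5 against 82 UMIs.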

How the data were processed

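Both samples are 10x Chromium 3′ single-cell RNA libraries, 1 per host. The deposited matrices hold raw UMI counts per gene and barcode, before cell calling. Per the submitters' processing notes the authors used Cell Ranger 3.1.0 and mm10, but the headers of the matrices name version 4, and no source used here gives the annotation. Positions and 3′ ends came from GENCODE M21 by gene ID, and all 8 members matched. Promoter windows came from a RefSeq table (GRCm38.p6), which has no Epas1 entry.

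UMIs were summed per library and class and scaled per 1000000. Ratios carry exact conditional binomial 95% intervals and shares Clopper-Pearson intervals, also for shares at 0 within a class of cells. A count of 0 was taken as 3 counts in ratios and in the limits given for Ptgdr2, which are thus not directly comparable with the Clopper-Pearson limits. A gene was called at 2-fold or more, among genes with at least 50 UMIs in the 2 sums. Total UMIs were 3753437 and 1934068, of which cells held 68.5% and 81.5%. The mitochondrial limit removed 72 and 25 barcodes. Scrublet (scanpy 1.11.5, rate 0.05) called 5 doublets in each library, which were kept. Expected shares at 1000 UMIs were computed exactly, in 341 of the 352 WT-host cells and all 156 others. Computation was in Python 3.11.15 with numpy 2.4.6, scipy 1.17.1 and pandas 2.3.3, and were tested on simulated data.

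The named genes were the members, list genes past 2-fold or with most UMIs, and the 5 best correlates of each member with 50 UMIs in each library. Members, lists and rules were chosen with earlier results of these data known. Alternatives covered cell filters, doublets, cell classes, depth, scaling, leading cells and the count minimum. A further class of cells that had been planned is not reported here, and its cells were counted in the other classes.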

Additional observations from a re-analysis of the deposited data

Results flagged for a closer look

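The host ratios of 2 members pointed in opposite directions in cytokine-positive and cytokine-negative cells. For Il1rl1 the log2 ratio, MARCH1-/- over WT host, was -0.14 in cytokine-positive cells (247 against 480 UMIs) and 0.23 in cytokine-negative cells (86 against 112 UMIs), and both counting intervals include no difference. For Epas1 it was 0.48 in cytokine-positive cells (31 against 39 UMIs) and -1.71 in cytokine-negative cells (5 against 25 UMIs). The difference between the cell classes was not tested in either case, since each host gave 1 library.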

How the results depend on the processing

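No paired analysis was possible because each host gave 1 library, and leaving out a replicate was not possible for the same reason. Across 13 settings Rbpj stayed lower from the MARCH1-/- host over all cells, with log2 ratios from -1.47 to -0.94, and its side of the 2-fold threshold depended on the setting. It was the 1 member past 2-fold over all cells without doublets, with at least 2 cytokine UMIs, thinned to 1000 UMIs, with totals without ribosomal protein genes, relative to the median gene and without the 5 leading cells. In cytokine-positive cells it was the 1 member past it thinned to 1000 UMIs and relative to the median gene. The seeded draw was low in Rbpj for the MARCH1-/- host, 54 UMIs against 74.3 expected over all draws, and the ratio expected over all draws was -0.95. In cytokine-negative cells 0 members passed by the mean of per-cell CPM and without Foxp3 cells, and 2, Rbpj and Epas1, with a minimum of 20 UMIs or no minimum.

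Without cycling cells, Pparg was the 1 member with at least 50 UMIs past 2-fold over all cells and in cytokine-positive cells, at 1.14 and 1.46, while Epas1, under that minimum, was at 1.10 and 2.35, and by the mean of per-cell CPM Epas1 was the 1 in cytokine-positive cells. The Gata3 host ratio ran from -0.06 to 0.42, and that of Il1rl1 from -0.38 to 0.50. Between the classes of cells Gata3 stayed higher in cytokine-positive cells, at 0.98 to 1.37 from the WT host and 0.60 to 1.95 from the MARCH1-/- host, and Il1rl1 and Pparg were past 2-fold under all settings run, except that Pparg could not be compared for the MARCH1-/- host after thinning. There 0 of the 2 members with enough UMIs passed after thinning, and 5 with no minimum. Of the ratios between classes, Rbpj changed sign, to -0.74 in the MARCH1-/- host library in the thinned draw that was low in Rbpj, and Epas1, to -0.19 in the WT-host library without cycling cells. In the cells with at least 5000 UMIs, a setting chosen after seeing the data, median depths from the WT host were 8585 and 8526 UMIs and Gata3 was at 0.98.

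Counts of all genes past 2-fold over all, cytokine-positive and cytokine-negative cells between hosts, then between classes from the WT and MARCH1-/- hosts, were 661, 501, 570, 235 and 182. They were 209, 72, 177, 66 and 24 after thinning, 432, 249, 353, 127 and 101 without cycling cells, 1129, 1028, 1134, 604 and 526 with a minimum of 20 UMIs, and 2236, 2290, 2440, 1892 and 1859 with no minimum. Fewer UMIs leave fewer genes to compare, and lower minimums admit genes of few counts.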

Other observations

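Barcodes over the mitochondrial limit, 72 from the WT host and 25 from the MARCH1-/- host, were not counted as cells. In them Rbpj was at 1304 CPM (1062 to 1584) and 503 CPM (281 to 829), and Gata3 at 349 CPM (230 to 507) and 268 CPM (116 to 528). No Il4 UMI was found in these barcodes of either library.

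Arg1, the arginase of type 2 innate lymphoid cells and macrophages, gave 75 UMIs in 18 cells from the WT host and 4 UMIs in 2 cells from the MARCH1-/- host. Arg1 was on a list of 7 genes of type 2 innate lymphoid cells, of which 299 of 352 and 131 of 156 cells held a UMI. Ly6a, which activated T cells also express, gave most of the UMIs of that list. Klrg1 had 248 and 197 UMIs in 56 and 44 cells, Calca 285 and 69 UMIs, Kit 2 and 0, and Rxrg 0 in both. The cells with Arg1 were not separated from the T cells here.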
